A study of Homo sapiens with 6 samples.

Results

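Of the 380031 peaks listed for PAI-1 over 4 libraries, 6370 lay beside a large hole in the human reference. A hole, or gap, was taken as a run of at least 50 kb of unknown bases (N) on chromosomes 1 to 22 of GRCh37, and a peak belonged to it when an edge was within 200 kb of the run. By library these near-gap peaks numbered 1527 of 96423 in RT112 replicate 1, 1023 of 60227 in RT112 replicate 2, 1873 of 109287 in UM-UC-3 replicate 1 and 1947 of 114094 in UM-UC-3 replicate 2. The position of a peak alone chose it, so its score, its width and its presence in other libraries were free to vary.

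The study asked where plasminogen activator inhibitor-1 (PAI-1), a secreted blocker of plasminogen activators, met chromatin in the nucleus. Chromatin was precipitated with a PAI-1 antibody from RT112 and from UM-UC-3, 2 established lines of human bladder cancer, and sequenced (ChIP-seq). Each line gave 2 biological replicates, called RT112 1 and 2 and UM-UC-3 1 and 2 here. No treatment or genotype beside the cell line separated the groups, each group was a single line, and the input libraries were not analysed here.

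Centromeres, the sites where chromosomes attach to the spindle, rest on long arrays of alpha satellite, a short repeat unit copied head to tail. Other tandem repeats and recently duplicated blocks crowd around them and near chromosome ends, and gene families that still exchange copies sit in those blocks. Near-identical copies could not be put in order when GRCh37 was built, which left gaps of unknown bases, and short reads from such copies can match several places.

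The 225 gaps fell into 3 classes. There were 23 centromeric gaps of at least 3 Mb, which include the short arms of acrocentric chromosomes, 42 subtelomeric gaps within 2 Mb of a chromosome end, and 160 interior gaps. The sequence within 200 kb of them held 69.9 Mb of known bases, 2.60% of chromosomes 1 to 22, with 7.36 Mb by centromeric, 10.995 Mb by subtelomeric and 51.5 Mb by interior gaps.

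The DNA under the leading peaks shows what kinds of sequence were found there. The next windows, on the plus strand of GRCh37, come from loci of high mean score rank, 1 by an interior and 1 by a subtelomeric gap, with a peak in all 4 libraries. In the window at chr15:22409563-22409862 beside an interior gap and in that at chr4:1500310-1500609 beside a subtelomeric gap, capitals mark the bases that the peaks of all 4 libraries shared.
chr15 interior: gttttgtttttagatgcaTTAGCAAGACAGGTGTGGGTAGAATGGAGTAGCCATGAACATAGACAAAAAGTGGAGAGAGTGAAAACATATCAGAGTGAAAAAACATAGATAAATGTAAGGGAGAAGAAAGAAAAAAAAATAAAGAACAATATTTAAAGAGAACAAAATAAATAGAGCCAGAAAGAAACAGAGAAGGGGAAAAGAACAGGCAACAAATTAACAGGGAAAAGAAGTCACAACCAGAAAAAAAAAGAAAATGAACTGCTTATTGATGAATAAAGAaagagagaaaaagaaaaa
chr4 subtelomeric: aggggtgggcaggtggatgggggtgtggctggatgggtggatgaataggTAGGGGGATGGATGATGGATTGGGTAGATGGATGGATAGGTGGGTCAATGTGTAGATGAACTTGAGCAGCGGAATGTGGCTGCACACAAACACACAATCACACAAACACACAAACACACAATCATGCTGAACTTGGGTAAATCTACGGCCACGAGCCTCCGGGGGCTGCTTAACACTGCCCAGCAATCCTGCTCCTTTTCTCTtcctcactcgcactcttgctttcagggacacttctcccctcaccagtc

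The satellites beside gaps are shown by peaks of their own. A pair of adjoining units of alpha satellite on chromosome 19, at chr19:24551081-24551251 and chr19:24551252-24551422 (plus strand), lay 80.4 kb from the centromeric gap under the best-ranked centromeric member that repeated at 171 bp. Capitals mark the 113 of 171 bases (66.1%) that both units had in common. That peak was found in UM-UC-3 alone, with scores of 8.46 and 12.9, and its nearest protein-coding gene was ZNF254, 238 kb away. The last sequence, at chr1:142967237-142967386 on the minus strand, comes from a peak beside an interior gap of chromosome 1, and capitals mark 11 copies of GGAAT, the pentamer of classical satellite.
chr19 unit 1: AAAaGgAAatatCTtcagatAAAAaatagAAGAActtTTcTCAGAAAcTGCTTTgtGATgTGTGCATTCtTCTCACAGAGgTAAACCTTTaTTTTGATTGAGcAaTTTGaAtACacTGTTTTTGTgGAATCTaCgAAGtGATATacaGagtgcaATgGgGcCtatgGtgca
chr19 unit 2: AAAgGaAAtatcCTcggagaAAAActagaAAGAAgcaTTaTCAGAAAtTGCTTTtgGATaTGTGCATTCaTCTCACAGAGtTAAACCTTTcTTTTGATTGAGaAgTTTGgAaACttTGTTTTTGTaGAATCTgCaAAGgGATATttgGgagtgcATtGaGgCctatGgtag
chr1 pentamer: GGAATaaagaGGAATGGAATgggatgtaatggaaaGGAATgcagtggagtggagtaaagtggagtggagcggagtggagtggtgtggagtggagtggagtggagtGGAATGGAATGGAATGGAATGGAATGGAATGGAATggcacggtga

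Peaks were sparser beside gaps than on the rest of the same chromosomes. RT112 1 had 21.9 near-gap peaks per Mb of known sequence, RT112 2 had 14.6, UM-UC-3 1 had 26.8 and UM-UC-3 2 had 27.9. Divided by the number that the mean density of each chromosome in that library would give, the ratio was 0.644 in RT112 1, 0.690 in RT112 2, 0.683 in UM-UC-3 1 and 0.681 in UM-UC-3 2. All 4 libraries lay below 1, with a geometric mean of 0.674 and an SD of the ratios of 0.0207 (exact sign-flip permutation test over libraries, two-sided p = 0.125, adjusted p = 0.194 over 14 results). This was the smallest p that 4 libraries can give. The arithmetic mean was 0.667 ± 0.0327 (SD, n = 2) in RT112 and 0.682 ± 0.00109 (SD, n = 2) in UM-UC-3, and UM-UC-3 minus RT112 on the log2 scale was 0.03 (exact permutation test of 2 against 2, two-sided p = 1, adjusted p = 1). The lines differed by less than the spread between the RT112 replicates.

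**Figure D1:**
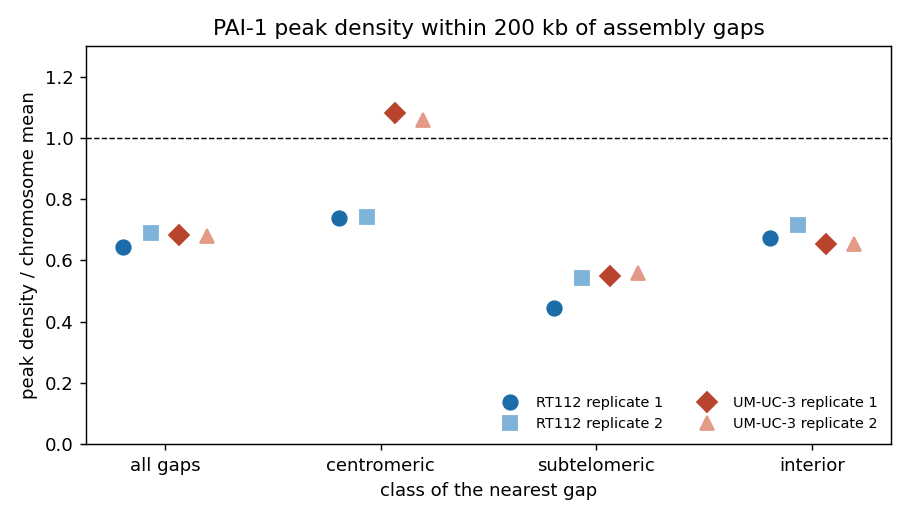
Near-gap peak density divided by the chromosome mean of the same library (vertical axis, no unit), by class of the nearest gap, with 1 point for each library and a dashed line at 1. In the centromeric class UM-UC-3 lay at 1.06 and 1.08 and RT112 at 0.738 and 0.743, while in the other classes all 4 libraries were below 1.

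The ratio varied with the class of gap. Beside subtelomeric gaps the density ratio was 0.445 and 0.541 in RT112 against 0.551 and 0.559 in UM-UC-3, the lowest of the 3 classes in every library. Beside interior gaps it was 0.674 and 0.716 in RT112 against 0.655 and 0.654 in UM-UC-3. The geometric means were 0.522 and 0.674, and each had all 4 libraries below 1 (exact sign-flip permutation test, two-sided p = 0.125, adjusted p = 0.194 for both). Against the zone from 200 kb to 2 Mb of the same gaps in place of the whole chromosome, the subtelomeric geometric mean was 0.866, and the bins of that zone themselves had 0.440 to 0.840.

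The cell lines lay farther apart beside centromeric gaps than in the other classes. In those classes the libraries of the lines did not overlap either, with UM-UC-3 higher beside subtelomeric and lower beside interior gaps. Beside centromeric gaps RT112 1 had 186 peaks and RT112 2 had 118, and UM-UC-3 1 and 2 had 305 and 311. Per Mb of known sequence this was 25.3, 16.03, 41.4 and 42.2 peaks, against chromosome means of 34.2, 21.6, 38.3 and 39.9. The ratio was 0.738 and 0.743 in RT112, a mean of 0.740 ± 0.00345 (SD, n = 2), and 1.08 and 1.06 in UM-UC-3, a mean of 1.07 ± 0.0160 (SD, n = 2). Both UM-UC-3 libraries lay above both RT112 libraries, a log2 difference of 0.53 and larger than the spread of either pair (two-sided p = 0.333 by exact permutation, which is the least that 2 against 2 allows). Over the 4 libraries the geometric mean was 0.890 (exact sign-flip permutation test, two-sided p = 0.5, adjusted p = 0.583). Against the zone from 200 kb to 2 Mb it was 1.096, and no library was below 0.985. The test between lines stands outside the 14 adjusted results.

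Within a library, centromeric gaps had the higher density ratio than interior gaps. The log2 difference was 0.13 in RT112 1, 0.05 in RT112 2, 0.72 in UM-UC-3 1 and 0.70 in UM-UC-3 2, a mean of 0.40 (exact sign-flip permutation test, two-sided p = 0.125, adjusted p = 0.194). The difference was small in RT112 and large in UM-UC-3. With a margin of 500 kb in place of 200 kb the mean was 0.15 and the lowest library was at -0.18, so the direction did not hold in every library, and with only runs of 1 Mb or more it was 0.98.

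The excess of UM-UC-3 over RT112 beside centromeres was spread over several chromosomes. At 12 of the 23 centromeric gaps both UM-UC-3 libraries had a higher ratio than both RT112 libraries, at 5 both RT112 libraries were higher, and at 6 the lines overlapped. Some of these differences were small. The 12 include chromosome 9, with 1 peak in each UM-UC-3 library and 0 in RT112. They also include chromosome 8, at 0.961 and 0.855 against 0.761 and 0.824 in RT112. The 5 include chromosome 22, with 2 and 1 peaks in RT112 against 1 in each UM-UC-3 library. On chromosome 2 the ratio was 0.151 and 0.120 in RT112 and 1.41 in both UM-UC-3 libraries. On chromosome 14 it was 0.431 and 0.702 against 2.58 and 1.81, and on chromosome 19 it was 0.862 and 1.04 against 2.55 and 2.25. The gap of chromosome 21 between its arms went the other way, with 1.54 and 2.35 in RT112 against 0.762 and 0.982 in UM-UC-3. Chromosomes 9 and 22 were nearly empty in both lines, with ratios of 0 to 0.0956 and 0.153 to 0.357. Leaving out 1 centromeric gap at a time kept the class ratio between 0.657 and 0.779 in RT112 and between 1.002 and 1.12 in UM-UC-3, and the lowest UM-UC-3 values came without chromosome 19.

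**Figure D2:**
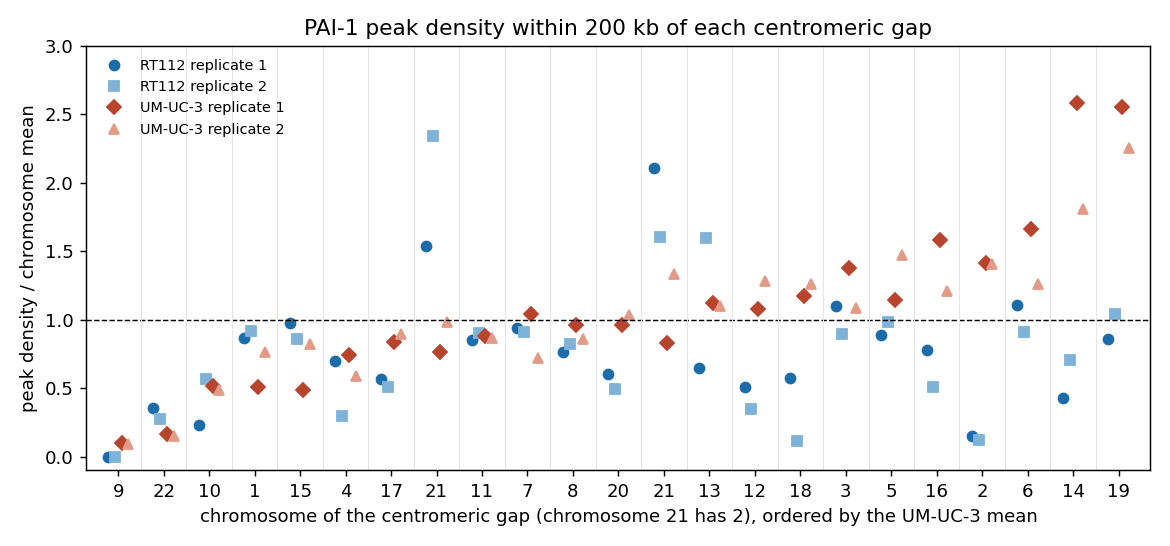
Peak density within 200 kb of each of the 23 centromeric gaps divided by the chromosome mean (vertical axis, no unit), with 1 point for each library and gaps ordered by the UM-UC-3 mean. UM-UC-3 reached 2.58 on chromosome 14 and 2.55 on chromosome 19, and RT112 stood above UM-UC-3 at both gaps of chromosome 21.

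Acrocentric short arms, where the gap starts at the first base of the chromosome, kept UM-UC-3 above RT112. The sequence measured was that after each gap, not the short arm inside it. Its ratio was 0.764 and 0.931 in RT112 against 1.002 and 0.996 in UM-UC-3, from 17 to 32 peaks. RT112 2, with 17 of these peaks, stood above the 0.743 of its class. Chromosome 14 alone held 15 and 11 of the UM-UC-3 peaks and 3 in each RT112 library. On chromosomes 15 and 22 and at this gap of chromosome 21 both RT112 libraries lay above both UM-UC-3 libraries. On chromosome 13 the lines overlapped. Centromeric gaps that do not start at the first base had 0.735 and 0.718 in RT112 against 1.09 and 1.07 in UM-UC-3. Interior gaps within 5 Mb of a centromeric gap had 0.612 to 0.636 over the 4 libraries, and those farther away had 0.665 to 0.774.

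The low density reached past the 200 kb limit. In the first 10 kb from a gap the ratio was 0.583, 0.600, 0.624 and 0.582 in the 4 libraries. Just inside the limit, at 150 to 200 kb, it was 0.705, 0.745, 0.803 and 0.812, and just outside, at 200 to 250 kb, it was 0.750, 0.744, 0.724 and 0.735. From 500 kb to 1 Mb it was 0.837 to 0.868, and from 1 to 2 Mb it was 0.949 to 0.976. The values on both sides of the limit overlapped, and the density came near the chromosome mean only in the last bin. Beside subtelomeric gaps it was still 0.724 to 0.840 at 1 to 2 Mb. Beside centromeric gaps UM-UC-3 stood above 1 from 50 to 200 kb, at 1.14 to 1.21, and RT112 at 0.562 to 0.888 over the same bins.

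**Figure D3:**
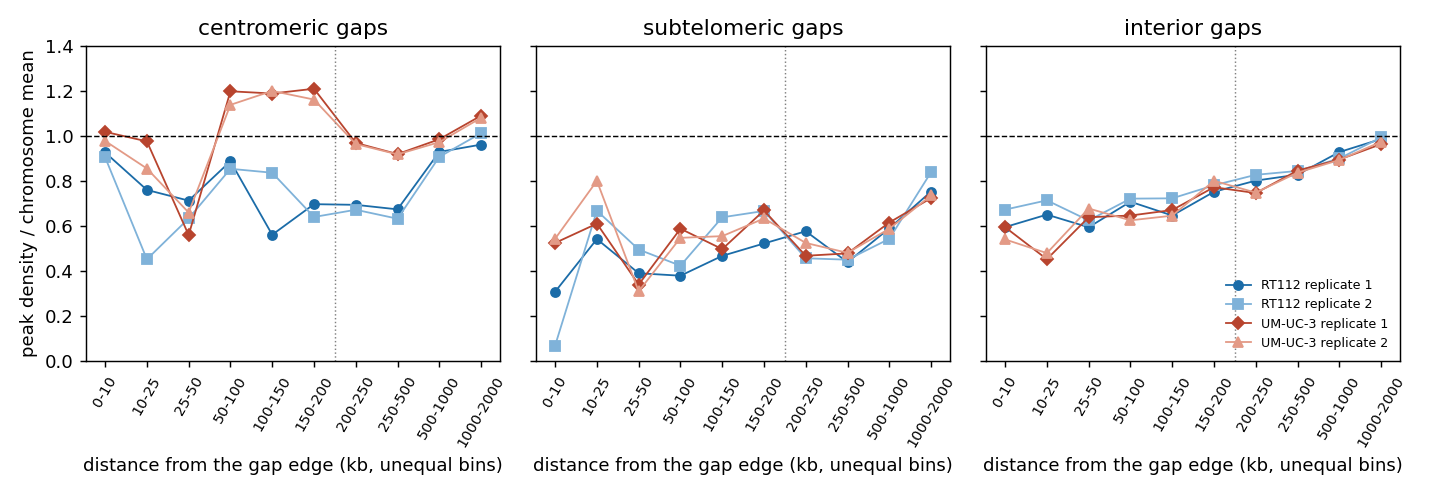
Peak density divided by the chromosome mean (vertical axis, no unit) in bins of distance from the gap edge in kb (horizontal axis, bins of unequal width), for the 3 gap classes, with 1 line for each library and a dotted line at the 200 kb limit. Interior gaps go from 0.453 to 0.714 at 10 to 25 kb to 0.964 to 0.994 at 1 to 2 Mb, and in the centromeric panel both UM-UC-3 libraries lie above both RT112 libraries in every bin but 25 to 50 kb.

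To set the density against repeat content, the sequence was divided into tiles of 10 kb. The share of 31-mers that occur more than once in the reference was taken for each tile near a gap, and for 1 tile in every 200 kb elsewhere. The mean share was 47.7% near gaps and 14.2% elsewhere, and tiles at 50% or more made up 44.5% of near-gap sequence and 3.64% of the rest. In those near-gap tiles the density ratio was 0.363 and 0.387 in RT112 against 0.405 and 0.408 in UM-UC-3, the lowest of the 4 repeat ranges in every library. In tiles with 25 to 50% repeated 31-mers it was 1.01 and 1.003 in RT112 and 1.15 in both UM-UC-3 libraries. In tiles with 10 to 25% it was 0.862, 0.965, 0.912 and 0.930. In tiles under 10% it was 0.780, 0.838, 0.763 and 0.735, below the 0.997 to 1.05 of tiles far from gaps in the same range. In all 4 libraries the near-gap ratio thus went up over the first 3 repeat ranges and was lowest in the last. The part of repeat content in the density beside gaps was not tested.

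**Figure D4:**
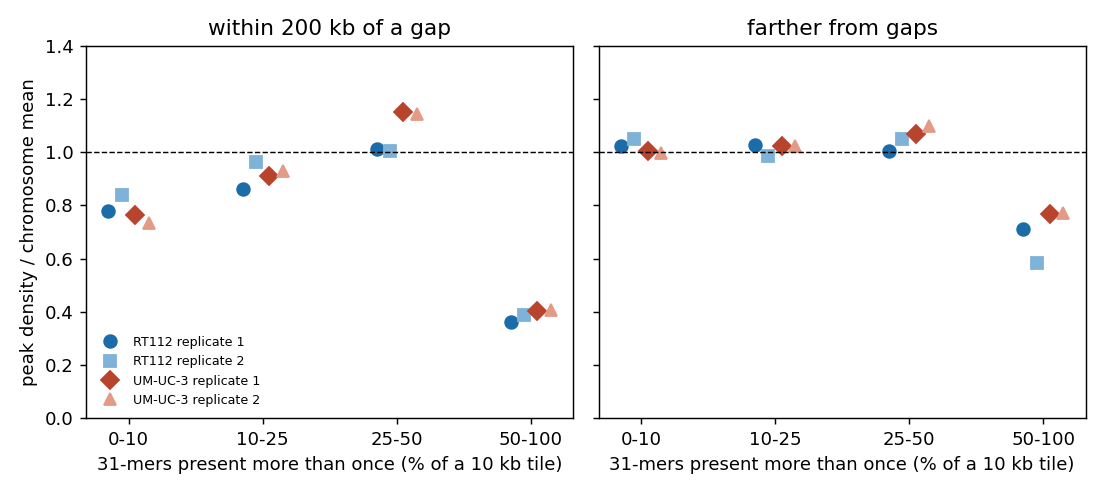
Peak density divided by the chromosome mean (vertical axis, no unit) in 10 kb tiles grouped by the percentage of their 31-mers that occur more than once, within 200 kb of a gap (left) and farther away (right), with 1 point for each library. Near-gap tiles in the range of 50 to 100% lie at 0.363 to 0.408, and far tiles in that range at 0.583 to 0.773.

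The same split by gap class kept the contrast of the cell lines. In centromeric tiles under 10% repeated 31-mers, the ratio to far tiles of that range was 0.841 and 0.749 in RT112 against 1.35 and 1.07 in UM-UC-3. In the range of 25 to 50% it was 0.971 and 0.979 against 1.19 in both UM-UC-3 libraries. Subtelomeric tiles under 10% were the sparsest of that range, with 0.280 and 0.365 in RT112 against 0.434 and 0.436 in UM-UC-3, and interior tiles under 10% had 0.817 to 0.948.

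Single flanks, meaning the 200 kb on one side of a gap with at least 50 kb of known bases, varied widely. Of 406 flanks, 32 had a ratio above 1 in all 4 libraries, 227 were below 1 in all 4, and the median of the mean ratio was 0.557. Of those 227 flanks, 31 had no peak in any library. Repeated 31-mers made up a median of 97.9% of the sequence in these 31 flanks, 33.9% in the 32 high flanks and 48.6% over all flanks.

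The flank with the highest mean ratio lay on the short arm side of the chromosome 4 centromere, before the gap at chr4:49338942-49488941. It had 15 and 12 peaks in RT112, ratios of 3.73 and 5.04, and 8 and 9 peaks in UM-UC-3, ratios of 1.42 and 1.51. The flank on the far side of that gap also ranked among the 5 highest, with 3, 5, 2 and 3 peaks in 85.6 kb. The flank before the chromosome 21 gap at chr21:11188130-14338129, which reaches TPTE, a gene expressed in testis, had 18 and 16 peaks in RT112 against 8 and 14 in UM-UC-3. In these flanks RT112 had the higher ratios in both replicates.

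Flanks with high UM-UC-3 values lay elsewhere. The end of the long arm of chromosome 8, before the gap at chr8:146304023-146364022 and with the zinc finger genes ZNF250 and ZNF16, had 24 and 20 peaks in UM-UC-3 and 12 and 10 in RT112. The long arm side of the chromosome 19 centromere, after the gap at chr19:24631783-27731782, had 20 and 19 peaks in UM-UC-3 and 6 and 4 in RT112. These counts gave ratios of 2.44 to 3.19 in UM-UC-3 and 1.15 to 1.83 in RT112.

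The 3 named empty flanks hold genes of near-identical families among others. Both sides of the gap at chr10:17974676-18024675 had 0 peaks in all 4 libraries. One side carries MRC1, the macrophage mannose receptor, and the other MRC1L1, its copy in GRCh37, and 94.0% and 93.9% of the 31-mers there occurred more than once. The flank before the gap at chr15:82829646-82879645, with GOLGA6L10 and GOLGA6L9 of the golgin A6 family, also had 0 peaks and 98.6% repeated 31-mers.

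Near-gap peaks were about as strong as other peaks of the same library. The score is the −log10 value given by the peak caller, and its median over near-gap and other peaks was 4.18 and 3.801 in RT112 1, 4.11 and 4.09 in RT112 2, 3.89 and 3.88 in UM-UC-3 1 and 3.85 and 3.85 in UM-UC-3 2. The mean difference was 0.104 (exact sign-flip permutation test, two-sided p = 0.25, adjusted p = 0.318), and without RT112 1 it was 0.0138. A score of 10 or more was held by 168 near-gap peaks in RT112 1 (11.002%, against 10.1% of all peaks on chromosomes 1 to 22), 92 in RT112 2 (8.99%, against 8.75%), 177 in UM-UC-3 1 (9.45%, against 9.17%) and 183 in UM-UC-3 2 (9.40%, against 9.2%). With the classes pooled, these shares were close to the background. The mean difference from other peaks was 0.424 percentage points (exact sign-flip permutation test, two-sided p = 0.125, adjusted p = 0.194), 0.243 points without RT112 1 and -0.878 points around runs of at least 1 Mb. Beside subtelomeric gaps the share was 14.6 and 13.7% in RT112 against 14.7 and 12.7% in UM-UC-3, above the background in all 4 libraries. Beside centromeric gaps it was 10.2 and 9.32% against 5.57 and 8.36%, below the background in UM-UC-3 only. Interior gaps had 10.6, 8.14, 9.42 and 9.05%. The classes were not tested.

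Near-gap peaks were also among the 50 highest scores of each library. The peak with the highest score in each RT112 library was a near-gap peak, with scores of 126.8 and 115.1. The highest near-gap scores in UM-UC-3 were 73.6 and 60.4, below the 91.3 and 83.6 of other peaks. Among the 20 highest scores near-gap peaks took 2 and 1 in RT112 against 1 and 0 in UM-UC-3. Among the 50 highest scores near-gap peaks took 3 and 3 in RT112 against 3 and 2 in UM-UC-3. Among the 100 highest scores near-gap peaks took 6 and 8 in RT112 against 4 and 3 in UM-UC-3, while they made up 1.69 and 1.81% of the chromosome 1 to 22 peaks of RT112 and 1.80 and 1.79% of those of UM-UC-3. Among the 1000 highest they took 2.9 and 2.5% in RT112 against 1.8 and 2% in UM-UC-3, so the UM-UC-3 shares were close to the background.

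Widths were close as well. The median width of near-gap and other peaks was 296 and 293 bp in RT112 1, 267 and 264 bp in RT112 2, 275 and 274 bp in UM-UC-3 1 and 270 bp for both in UM-UC-3 2. The mean difference was 1.75 bp (exact sign-flip permutation test, two-sided p = 0.25, adjusted p = 0.318) and ranged from 0.25 to 4.75 bp over the alternatives. Peaks of 700 bp or more numbered 32 (2.096%, background 1.63%) and 16 (1.56%, background 0.619%) in RT112, and 20 (1.07%, background 1.19%) and 24 (1.23%, background 1.15%) in UM-UC-3. Wide near-gap peaks exceeded the background in both RT112 libraries but not in both UM-UC-3 libraries, a difference that was not tested.

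Replicates found near-gap peaks again about as often as other peaks. The share overlapping a peak of the other replicate by at least 1 bp was 41.3% in RT112 1 (background 38.2%), 61.5% in RT112 2 (background 61.2%), 73.2% in UM-UC-3 1 (background 74.8%) and 70.4% in UM-UC-3 2 (background 71.8%). The difference from other peaks was 3.16 and 0.300 points in RT112 and -1.64 and -1.36 points in UM-UC-3. The mean over libraries was 0.114 points (exact sign-flip permutation test, two-sided p = 0.875, adjusted p = 0.942), and its sign depended on which cell line was in the mean.

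The other cell line shared near-gap peaks somewhat more often than other peaks, and the excess was largest beside interior gaps near centromeres. Overlap with either library of the other line was seen for 140 near-gap peaks of RT112 1 (9.17%, background 7.1%), 95 of RT112 2 (9.29%, background 7.81%), 137 of UM-UC-3 1 (7.31%, background 5.97%) and 129 of UM-UC-3 2 (6.63%, background 5.89%). The share was above that of other peaks in 4 of 4 libraries, by 1.43 points on average (exact sign-flip permutation test, two-sided p = 0.125, adjusted p = 0.194). The mean was 0.924 points without RT112 1, 0.862 points without UM-UC-3 1, 0.479 points with a margin of 500 kb and 2.52 points among scores of 5 or more. By class, interior gaps within 5 Mb of a centromeric gap had shares of 11.5 and 14.0% in RT112 against 9.66 and 9.57% in UM-UC-3. Centromeric gaps had 10.2 and 11.9% against 5.90 and 5.14%, so both UM-UC-3 libraries lay below background. Farther interior gaps had 7.97, 6.69, 6.89 and 5.97%, with RT112 2 below background. Subtelomeric gaps had 8.19, 9.16, 6.06 and 5.33%, with UM-UC-3 2 below background.

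Sharing was also counted over merged loci, in which overlapping near-gap peaks of the 4 libraries count once. There were 4201 near-gap loci, of which 1752 were found in RT112 alone, 2282 in UM-UC-3 alone and 167 in both lines (3.98%, background 3.25%). In all 4 libraries there were 45 (1.07%, background 0.854%). By class, both lines shared 21 of 602 centromeric loci (3.49%), 17 of 520 subtelomeric loci (3.27%) and 129 of 3079 interior loci (4.19%). Of the 423 near-gap loci with a score of 10 or more in some library, 57 (13.5%) were in both lines and 29 (6.86%) in all 4 libraries, beside 10.4% and 4.57% of all such loci.

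Repeated sequence lay under a larger share of near-gap peaks than of other peaks, though most near-gap peaks were in unique sequence. The median 31-mer of the peak occurred more than once in the reference for 28.5% of near-gap peaks in RT112 1 (background 9.04%), 28.1% in RT112 2 (background 8.81%), 30.3% in UM-UC-3 1 (background 10.8%) and 31.6% in UM-UC-3 2 (background 11.1%). The mean difference from other peaks was 20.03 points and positive in 4 of 4 libraries (exact sign-flip permutation test, two-sided p = 0.125, adjusted p = 0.194). For scale, repeated 31-mers made up 47.7% of all sequence near gaps, a share of bases and not of peaks. Near-gap peaks in unique sequence had the higher median score in all 4 libraries. It was 4.31, 4.13, 4.34 and 4.26 where the median 31-mer occurred once, and 4.09, 4.09, 3.88 and 3.85 where it was repeated. A score of 10 or more did not follow the same order: its share was 10.6, 8.97, 10.04 and 10.3% in unique and 11.95, 9.06, 8.10 and 7.47% in repeated sequence, higher in repeats in both RT112 libraries and lower in both UM-UC-3 libraries. Neither difference was tested.

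Tandem repeats lay under a small share of near-gap peaks, though a larger one than of other peaks. The share of near-gap sequence that is tandem was not measured, so whether peaks favour it was not tested. The 1 kb window around the peak matched itself at 60% or more of its bases after a shift of 2 to 400 bp for 74 near-gap peaks in RT112 1 (4.85%, background 0.207%), 49 in RT112 2 (4.79%, background 0.193%), 110 in UM-UC-3 1 (5.87%, background 0.209%) and 5.75% of those of UM-UC-3 2 (background 0.213%). The mean difference was 5.20 points in the same direction in 4 of 4 libraries (exact sign-flip permutation test, two-sided p = 0.125, adjusted p = 0.194). It was 3.06 points with a margin of 500 kb and 16.0004 points around runs of at least 1 Mb. Beside centromeric gaps 16.7 and 18.6% of the RT112 peaks and 18.0 and 17.4% of the UM-UC-3 peaks lay in such windows. The density of centromeric peaks thus differed between the lines while their tandem share did not separate them.

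The shift of best match tells which repeat it was. Of 5849 distinct near-gap intervals 308 were tandem, and 108 of these (35.1%) repeated at 171 bp, the length of the alpha satellite unit printed from chromosome 19. Within 3 bp of that unit or 4 bp of its double were 193 (62.7%), and beside centromeric gaps 133 of 151 (88.1%). Away from gaps 364 of 324174 intervals were tandem and 92 of them (25.3%) fell in these ranges. No subtelomeric interval of 12 tandem ones did.

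Pentamer satellite and the box bound by the centromere protein CENP-B were rarer. Windows of 1 kb with 20 or more GGAAT on both strands together numbered 24 and 21 in RT112 against 23 and 24 in UM-UC-3 (1.57, 2.05, 1.23 and 1.23% of near-gap peaks), while 0.00489 to 0.00844% of other peaks had them. The CENP-B box core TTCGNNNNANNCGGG, searched on both strands, was in the window of 8, 3, 11 and 13 near-gap peaks (0.293 to 0.668%) and of 0.0180 to 0.0281% of other peaks. A match to these letters is a description of the sequence only, and the share of all near-gap sequence that holds them was not measured.

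Base composition moved less. Median GC of near-gap and other peaks was 42.9 and 42.2% in RT112 1, 43.7 and 42.6% in RT112 2, 41.0 and 40.2% in UM-UC-3 1 and 40.9 and 40.1% in UM-UC-3 2. The mean difference was 0.835 points (exact sign-flip permutation test, two-sided p = 0.125, adjusted p = 0.194), but it was -3.30 points around runs of at least 1 Mb and 1.49 points with a margin of 500 kb. Centromeric members had medians of 37.2 to 38.4% and subtelomeric members 43.996 to 47.0%. Peaks with at least 70% of purines or of pyrimidines on a strand were 2.69 and 4.399% of near-gap peaks in RT112 against 2.03 and 2.00% in UM-UC-3, beside 0.809, 1.26, 0.668 and 0.720% of other peaks.

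Of the named loci beside centromeric gaps, only the lower in rank is described here. At chr6:61986465-61987024, 403 kb from the RNA-binding protein gene KHDRBS2, it scored 16.03 and 9.53 in RT112 against 9.65 and 16.1 in UM-UC-3.

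Of the loci of best RT112 rank, the one with the highest scores is not described here, and the other named ones sat beside interior and subtelomeric gaps. At chr4:49315368-49315816, 23.1 kb from the gap and 251 kb from CWH43, a gene for lipid remodelling of anchored proteins, scores were 65.7 and 45.1 in RT112 against 19.9 and 16.5 in UM-UC-3. At chr1:142966689-142967414, the locus of the printed pentamer and 0.347 kb from the gap, they were 57.1 and 43.9 against 11.4 and 12.9. At chr12:158169-159055, 12.4 kb from a subtelomeric gap, they were 39.2 and 35.9 against 12.9 and 16.3. Scores of different libraries are not comparable, as depth is unknown. By rank within a library these loci stood at 9 and 22, 21 and 27, and 88 and 72 in RT112. The UM-UC-3 ranks were 1592 and 2458, 6663 and 4937, and 4807 and 2491. The loci were chosen by rank, so this is a description. At chr8:86403800-86404071, 10.1 kb from CA2, the carbonic anhydrase II gene, RT112 scored 44.7 and 39.02 and UM-UC-3 had no peak.

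Most leading loci of UM-UC-3 were absent from RT112. Few loci of high score were shared in general. Of those with a score of 10 or more in some library, 13.5% beside gaps and 10.4% of all were in both lines. At chr2:16125878-16126472, 153 kb from the gap and 38.7 kb from MYCN, a MYC family transcription factor gene, UM-UC-3 scored 73.6 and 60.4. At chr1:149172621-149173296 it scored 50.3 and 60.4, and the nearest protein-coding gene was the histone gene H3-7, 216 kb away. At chr17:505118-505333, in an exon of VPS53, a subunit of a complex that tethers vesicles to the Golgi, it scored 37.4 and 48.2. At chr1:149118335-149118713, in an intron of the NBPF17P pseudogene, it scored 41.9 and 33.5, and the median 31-mer there had 11 copies.

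A few loci were strong in both lines. At chr15:22409506-22409879, the interior window printed above and 25.7 kb from LINC02203, scores were 20.99 and 17.1 in RT112 against 48.4 and 39.7 in UM-UC-3. At chr8:7622456-7623035, 0.593 kb from FAM90A9 in a block of repeated genes, they were 27.9, 24.0, 33.6 and 25.6, the best mean rank of any locus found in all 4 libraries, and the median 31-mer had 16 to 18.5 copies. At chr4:1500325-1500594, the subtelomeric window printed above and 100 kb from the homeobox gene NKX1-1, they were 15.7 and 14.9 in RT112 against 24.8 and 23.4 in UM-UC-3.

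**Figure D5:**
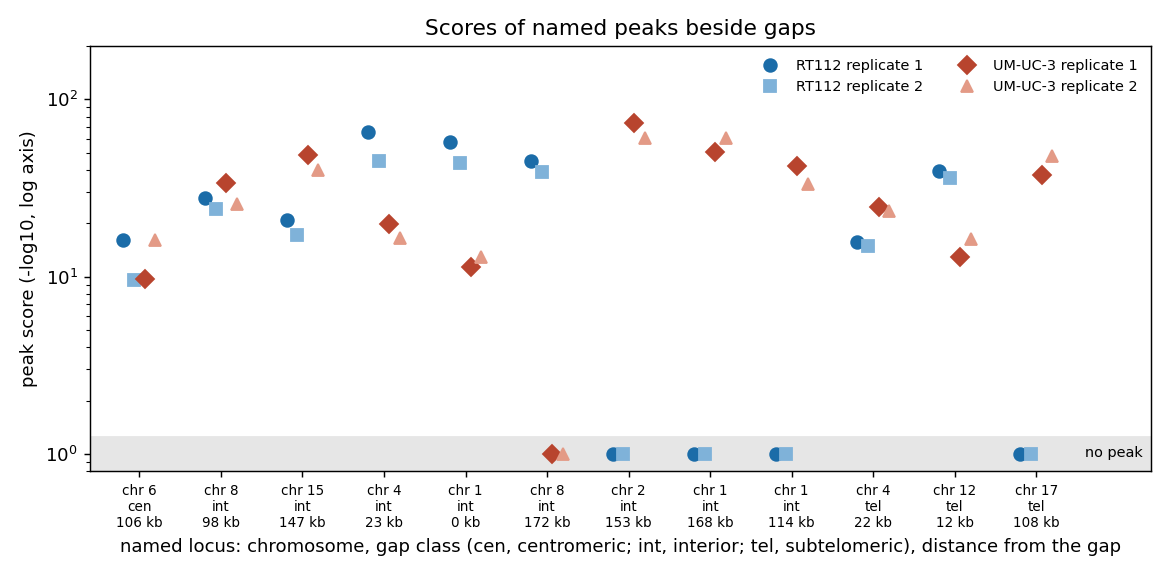
Peak score of the named loci described here (vertical axis, −log10 on a log scale) for each library, with the chromosome, gap class and distance from the gap below; points in the grey band stand for no peak. The locus with the highest RT112 scores, 126.8 and 115.1, is not plotted, and among those that are the RT112 points reach 65.7 on chromosome 4 and the UM-UC-3 points 73.6 on chromosome 2. Scores are to be read within a library.

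The share of genes with a peak was lower beside gaps than over all genes, a difference that was not tested. Of 701 protein-coding genes within 200 kb of a gap, 172 (24.5%, background 40.4%) carried a peak, counting 3 kb on either side, in both RT112 replicates, and 252 (35.9%, background 54.2%) in both UM-UC-3 replicates. Their median length was 15.1 kb and that of other genes was 28.2 kb, and the part of length in these counts was not tested.

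Gene families beside gaps ranged from no gene reached to every gene reached. No gene of the POTE (2 genes), FOXD4 (5), FAM27 (5), SPDYE (4) or FRG (2) families had a peak in both replicates of either line. These had median gene lengths of 33.2, 3.11, 1.34, 9.38 and 12.6 kb, against 50.1 kb in NBPF, 84.6 kb in TPTE and 188 kb in CNTNAP3. The part of length was not tested. Of 9 NBPF genes, which repeat a domain of unknown role many times, 1 had it in RT112 and 3 in UM-UC-3, and NBPF1 had 4, 2, 6 and 7 peaks over the 4 libraries. TBC1D3, a hominoid family of 7 genes here, had 0 in RT112 and 3 in UM-UC-3, but these 3 (TBC1D3G, TBC1D3H and TBC1D3C) overlap on chromosome 17 and counted 1 peak in each UM-UC-3 library. CBWD had 0 and 2 of 3. Of 21 genes with the symbol of an olfactory receptor 5 had it in RT112 and 8 in UM-UC-3, and of 13 zinc finger genes 3 and 4. Of those olfactory receptor symbols OR4M2-OT1, OR4M2 and OR4M2B overlap on chromosome 15 and counted shared peaks, all 3 in RT112 and the first 2 in UM-UC-3. TPTE had 5, 1, 3 and 3 peaks. CNTNAP3B and CNTNAP3C, which encode contactin-associated proteins, had 1, 1, 3 and 2 each, but they overlap on chromosome 9 and counted the same peaks. Copies of a family share sequence, so the peak of a read that matched several of them is uncertain.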

How the data were processed

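Read pairs were aligned by the authors with Bowtie 1.1.1 at default settings (build hg19), duplicates were removed with Picard and peaks were called with MACS2 2.1.0.20140616; the submitters' processing notes also name FastQC and Trimmomatic. At its defaults Bowtie reports 1 place for a read that matches several, which bears on every value beside gaps. The deposited lists, 1 for each ChIP library, give position and a score on the −log10 scale, from either a p-value or a q-value (not stated which), with a lowest value of 2.00 to 2.01. A false discovery limit is given for the study's chromosome histograms, and whether it was the cut-off of the deposited lists, how input was used and whether replicates were pooled is not given in the sources used here. The lists hold no counts, so depth is unknown and no counting interval was computed. A score is therefore to be read within its own library.

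Lines with the same interval were counted once with the highest score. Coordinates are 1-based on GRCh37, the assembly behind hg19, sequences were read from it, and genes are those of GENCODE 44. The expected number near gaps used the density of each chromosome over known bases. Density ratios of all gaps or of a class were averaged over the 4 libraries as geometric means. Means within a line or for a single flank are arithmetic. Peaks near several gaps went to the nearest. Differences were tested over the 4 libraries by exact sign-flip permutation, and between lines by exact permutation (smallest p of 0.125 and 0.333), with Benjamini-Hochberg adjustment over 14 results. Replicates are those the labels call biological. Named loci were the 5 of best mean rank in each line, the 5 of best mean rank in all 4 libraries and the 2 best in each gap class; named flanks were the 5 highest and 3 of the 31 without a peak. Genes were named where nearest to or inside these, or in listed families. Genes with a peak in both replicates of RT112, then of UM-UC-3, were 0 and 1 of 2 ANKRD20, 0 and 1 of 2 GOLGA8 and 1 and 3 of 8 GOLGA6 genes (GOLGA6L22 and GOLGA6L1 overlap and share peaks); the BAGE, ANKRD26, ANKRD30, ANKRD36 and LRRC37 families had no gene counted within 200 kb. Sequence from chromosome 8 was not printed, so the interior window is the next best there, and 1 named locus, the highest in RT112 scores, is not reported here. Members, lists and tests were chosen with earlier results of these data known. Alternatives changed the margin, the gap length, the score, the baseline, the overlap and the libraries. Procedures were tested on simulated data. Python 3.11.15, numpy 2.4.6, pandas 2.3.3, scipy 1.17.1, numba 0.67.0 and matplotlib 3.10.9 were used.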

Additional observations from a re-analysis of the deposited data

Results flagged for a closer look

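Results are given here where both libraries of one cell line went one way and both of the other line the opposite way. Against the whole-chromosome mean, the centromeric density ratio was below 1 in RT112, at 0.738 and 0.743, and above 1 in UM-UC-3, at 1.08 and 1.06. With 2 libraries a line, the permutation test of this difference could not go below p = 0.333, which is the value it gave. Against the zone from 200 kb to 2 Mb the 4 libraries ranged from 0.985 to 1.23, so the low RT112 ratio depended on the baseline.

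The share of near-gap peaks found again in the other replicate, minus the share of other peaks, was 3.16 and 0.300 percentage points in RT112 and -1.64 and -1.36 points in UM-UC-3. This difference between the lines was not tested.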

How the results depend on the processing

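Of 196 recomputed values, means over libraries, 185 kept their direction, and no test could pass 0.05 under any setting. The near-gap density ratio (0.554 to 0.885), the subtelomeric ratio (0.373 to 0.866), the interior ratio (0.458 to 0.879), the centromeric minus interior difference and the differences in score, width, overlap with the other line, repeated 31-mers and tandem windows kept the direction of their mean under every alternative run. Relative to far tiles of the same repeat range, a comparison chosen after seeing the data, the near-gap ratio stayed below 1 in all libraries in the ranges under 10%, of 10 to 25% and of 50% or more repeated 31-mers, but was 1.01, 0.956, 1.08 and 1.04 at 25 to 50%.

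Directions turned in these cases. The centromeric ratio was 1.096 against the zone from 200 kb to 2 Mb. The cell line difference of the near-gap ratio, 0.03 on the log2 scale, was -0.0342 with a margin of 100 kb, -0.00347 with runs of 10 kb or more, -0.0867 among scores of 5 or more, and -0.0176 to 0.0823 with 1 library left out. The replicate overlap difference was -0.550 points with a margin of 500 kb, -0.00378 points without the gap with the most peaks, and -1.50 to 1.73 points with 1 library left out. Around runs of 1 Mb or more, the high score share difference was -0.878 points and the GC difference was -3.30 points. The cause was not tested. Runs of 1 Mb or more include no subtelomeric gap, so no value exists there.

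With the replicate block, pairing libraries by number across the lines, the cell line difference was 0.0323 (exact sign-flip permutation, p = 1). The numbers share no known batch, and over 406 flanks the differences between replicates of the lines had a correlation of -0.082. Depth is unknown, and classes with few peaks, such as the acrocentric gaps, are the least precise.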
